A study of Homo sapiens with 16 samples.

Results

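The genes described here are 50 genes of the cell cycle and of DNA replication, out of 63684 genes in the count table, chosen by name from a list of genes that proliferating cells use and that are shut off when cells rest. Their members were found as every 2000 bp window around an annotated transcription start site (TSS) that carried one of the 50 symbols, which gave 377 windows with distinct coordinates of 237274 in the table, and the reads of a gene's windows were summed. ChIP-seq, in which chromatin fragments bound by an antibody are sequenced and compared with unselected chromatin (input), had been done in BJ-5ta, a human fibroblast line immortalised with hTERT. The cells were wild type or ΔLEO1, a single clone made by CRISPR/Cas9 with guides to the first exons of LEO1, a subunit gene of the PAF1 complex that travels with RNA polymerase II, and wild type and ΔLEO1 alike carried hTERT. Growth was in 10% serum, in which the fibroblasts divide, or in 0.1% serum for 10 days to bring on quiescence, and every one of the 4 groups comprised 2 ChIP libraries and 2 input libraries, named A and B. The labels call the antibody H3, and the series design and the methods name H3K9me2, the dimethylated form of lysine 9 of histone H3. Counts from 1 of the 8 ChIP libraries, ΔLEO1 in 10% serum replicate A, were left out because it held 54 reads over all TSS windows, so that group rests on 1 ChIP library.

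H3K9me2 is laid down by the methyltransferases G9a and GLP over silent parts of the genome, and it is commonly low at the promoters of genes in use. Passage from G1 into S phase is driven by D-type and E-type cyclins with their kinases, which inactivate the RB family and free E2F factors to switch on genes for DNA replication. Genes of G2 and mitosis are switched on later by the B-MYB and FOXM1 factors, and in resting cells both waves are held down by the DREAM complex, which binds E2F sites and CHR elements.

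Promoter sequences show what the members share beyond their names. RefSeq gave a promoter (assembly GRCh38.p14) for 40 of the 50 members, and none was used for BIRC5, CCNE2, MCM5, E2F8, AURKA, CDK2, CCND1, MCM4, FOXM1 and CCND2. The 150 bases just before the listed gene start are printed for 7 members, 5′ to 3′ on the strand of the gene, because they span the range of ChIP signal described below. CDC45 (chr22:19479770-19479919, + strand), CDK6 (chr7:92836574-92836723, − strand) and RRM2 (chr2:10122589-10122738, + strand) had start windows far below input. CCNB1 (chr5:69167000-69167149, + strand), TK1 (chr17:78187205-78187354, − strand) and MYBL2 (chr20:43666964-43667113, + strand) had start windows near input. MCM6 (chr2:135876444-135876593, − strand) had the window with the smallest p-value of all member windows. Capitals mark matches on either strand to the CCAAT box (CCAAT), to E2F-type sites (TTTCCCGC, TTTCGCGC, TTTGCCGC or TTTGGCGC) and to CHR elements (TTTGAA or TTCGAA), and in MCM6 a pair of E2F-type matches overlap.
CDC45: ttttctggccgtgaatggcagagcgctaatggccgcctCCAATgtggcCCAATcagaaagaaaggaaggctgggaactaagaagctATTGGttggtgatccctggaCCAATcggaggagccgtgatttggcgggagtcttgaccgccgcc
CDK6: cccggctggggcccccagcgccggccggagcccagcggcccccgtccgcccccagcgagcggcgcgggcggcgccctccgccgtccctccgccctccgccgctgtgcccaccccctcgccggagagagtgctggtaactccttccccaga
RRM2: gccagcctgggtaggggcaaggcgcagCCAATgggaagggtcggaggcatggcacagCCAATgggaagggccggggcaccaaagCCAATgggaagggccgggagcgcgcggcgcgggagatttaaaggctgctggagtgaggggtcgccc
CCNB1: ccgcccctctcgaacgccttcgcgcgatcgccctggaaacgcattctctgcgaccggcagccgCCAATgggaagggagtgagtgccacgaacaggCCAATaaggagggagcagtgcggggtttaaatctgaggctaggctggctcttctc
TK1: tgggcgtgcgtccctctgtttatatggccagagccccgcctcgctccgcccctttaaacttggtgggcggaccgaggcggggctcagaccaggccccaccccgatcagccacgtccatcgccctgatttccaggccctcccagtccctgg
MYBL2: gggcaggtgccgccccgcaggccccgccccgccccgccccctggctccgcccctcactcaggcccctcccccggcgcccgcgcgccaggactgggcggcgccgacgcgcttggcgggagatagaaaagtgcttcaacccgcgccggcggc
MCM6: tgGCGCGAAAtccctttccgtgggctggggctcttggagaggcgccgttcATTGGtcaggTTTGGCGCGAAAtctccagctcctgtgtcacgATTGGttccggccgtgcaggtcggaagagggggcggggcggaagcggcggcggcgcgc
CDC45 held 4 CCAAT matches in this stretch, RRM2 3 and CCNB1 2, while CDK6, TK1 and MYBL2 held no match to any of these motifs. MCM6 held 3 E2F-type matches and 2 CCAAT matches. Over the 250 bases before the start, an E2F-type match was found in 12 of 40 member promoters (30.0%) and in 2.79% of 27305 RefSeq promoters. CHR matches were found in 12 members (30.0%, against 14.6% of all promoters) and CCAAT matches in 26 members (65.0%, against 33.0%). By role, E2F-type matches stood in 6 of 10 licensing and fork promoters and in 4 of 6 promoters of G1/S genes, and CHR matches in 6 of 10 mitosis promoters and 3 of 7 G2 promoters. Of 15843 promoters of protein-coding genes, 3.72% held an E2F-type match, 11.9% a CHR match and 34.5% a CCAAT match. The median GC content was 64.0% in members, 62.4% in protein-coding genes and 58.0% over all promoters. A match describes letters only and says nothing of binding.

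Reads over distinct windows numbered 1895572 to 3266061 in the 7 ChIP libraries, of which 2346 to 3887 fell in member windows, and the 8 input libraries held between 2844483 and 7947289 reads, of which 5361 to 16439 fell in member windows. Member windows thus took 0.113% to 0.124% of ChIP reads and 0.188% to 0.207% of input reads, and the ranges of the 2 kinds of library did not overlap. Within ChIP, the share was 0.114% ± 0.000526 (SD, n = 2) in wild type in 10% serum, 0.117% ± 0.0035 (n = 2) in wild type in 0.1% serum, 0.120% ± 0.000889 (n = 2) in ΔLEO1 in 0.1% serum and 0.124% in the single library of ΔLEO1 in 10% serum. Because windows of one gene overlap, a read can count more than once, and 26 of the 50 members also share sequence with windows of other genes. The labels do not say whether A and B were separate cultures, so the p-values measure the spread between these libraries.

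ChIP was compared with input first, to ask how much of the mark the members carried. Over the 7 libraries, each set against the input of its own group and letter, 46 of 50 members had a mean log2 ChIP over input below 0, with a median over members of −0.78 and a highest value of 0.21. The lowest mean without a library at 0 reads was that of PCNA, at −2.81, since AURKA had 0 ChIP reads in 1 library. Over all 57079 genes with a mean of at least 10 input reads, 36.9% were below 0 and the median was 0.41. The members' median lay between −0.94 and −0.70 in every one of the 7 libraries, where the median of all genes lay between 0.32 and 0.42. In each library, between 40 and 48 of the 50 members were below their input.

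**Figure D1:**
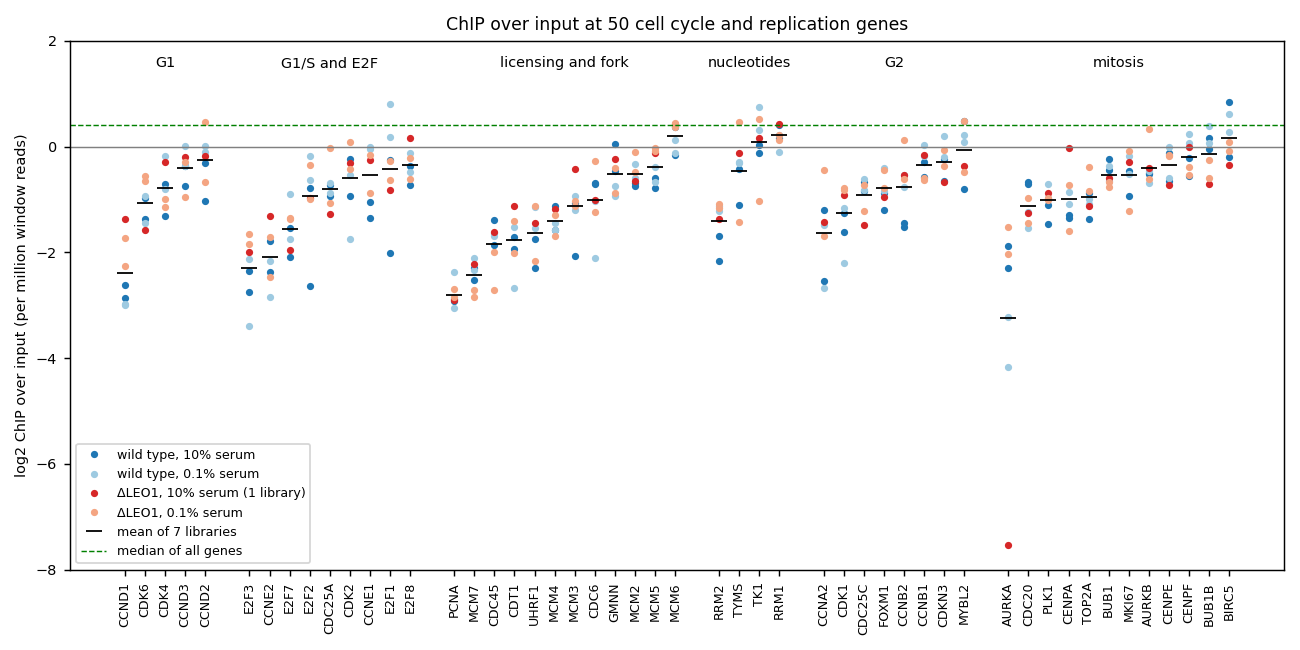
Log2 ChIP over input (both in CPM, 0.5 reads added) for the 50 members, grouped by role and ordered by mean within a role. Each point is 1 of 7 ChIP libraries, colours are groups, black dashes are means over the 7 libraries and the dashed line is the median of all genes (0.41). Most points lie below 0, with AURKA, PCNA, MCM7 and CCND1 lowest, and the AURKA point near −7.53 is a library with 0 ChIP reads.

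The same comparison was tested with edgeR's quasi-likelihood test over 57627 genes, called at a Benjamini-Hochberg adjusted p under 0.05. In wild type in 10% serum, ChIP was lower than input at 43 of 50 members and higher at 0, beside 27.3% of all genes called lower and 29.7% called higher. In wild type in 0.1% serum 32 members were lower and 0 higher (all genes, 23.9% and 20.1%). In ΔLEO1 in 0.1% serum 36 were lower and 0 higher (23.8% and 19.7%). In ΔLEO1 in 10% serum, with 1 ChIP library that is assumed to vary like the other groups, 27 were lower and 0 higher (17.1% and 14.4%). The members' median log2 fold change was −1.18, −0.94, −0.93 and −1.05 in the same order, beside medians over all genes of 0.14, 0.09, 0.14 and 0.06. Without the TMM factors, the split of all genes called moved from 52.1% higher to 63.8% higher in wild type in 10% serum, from 45.7% to 62.9% in wild type in 0.1% serum, from 45.3% to 66.2% in ΔLEO1 in 0.1% serum and from 45.7% to 63.8% in ΔLEO1 in 10% serum. In the 3 groups with 2 ChIP libraries, 27 members were called lower in all 3, 12 in 2, 6 in 1 and 5 in none, the last being BIRC5, MCM6, MYBL2, RRM1 and TK1. This overlap was not counted over all genes, of which 23.8% to 27.3% were called lower in a single group of the 3.

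Among genes of origin licensing and the replication fork, 10 of 12 members were called lower than input in wild type in 10% serum, 11 in wild type in 0.1% serum and 10 in ΔLEO1 in 0.1% serum. PCNA, the sliding clamp that holds polymerases on DNA (chromosome 20, 5118958 to 5127626 over 2 windows), had 1.71 and 1.81 ChIP CPM (the usual depth-scaled counts, with the reads over distinct windows as the total) in wild type in 10% serum, 2.05 and 1.26 in wild type in 0.1% serum, 1.22 and 1.82 in ΔLEO1 in 0.1% serum and 1.58 in ΔLEO1 in 10% serum. Its 8 inputs lay between 9.74 and 14.6 CPM, above every ChIP library. PCNA's log2 fold change was −3.28 ± 0.36 (SE) in wild type in 10% serum (edgeR adjusted p = 2.75e-07) and −3.02 ± 0.37 and −3.25 ± 0.38 in 0.1% serum in wild type and ΔLEO1. MCM7, a subunit of the MCM2-7 helicase (chromosome 7, 100094664 to 100102940), ran from 9.80 to 16.6 CPM in the 7 ChIP libraries and from 58.4 to 82.2 CPM in the inputs. Its log2 fold change was −2.67 ± 0.22, −2.49 ± 0.22 and −3.10 ± 0.23 in wild type in 10% serum, wild type in 0.1% serum and ΔLEO1 in 0.1% serum, and its windows also cover AP4M1, MIR106B and MIR93. CDC45, which activates the helicase, CDT1, which loads it, and UHRF1, which brings maintenance DNA methylation to the fork, had mean log2 ratios over the 7 libraries of −1.84 ± 0.43, −1.77 ± 0.50 and −1.63 ± 0.46 (SD, n = 7). The other MCM subunits were spread out, with MCM4 at −1.41 ± 0.21, MCM3 at −1.12 ± 0.49, MCM2 at −0.51 ± 0.23, MCM5 at −0.38 ± 0.31 and MCM6 at 0.21 ± 0.26. MCM6 had 13.2 to 20.6 CPM in ChIP and 12.9 to 18.2 in input, so the 2 kinds of library overlapped. CDC6, a loader of the helicase, stood at −1.01 ± 0.58 and geminin (GMNN), the inhibitor of CDT1, at −0.52 ± 0.36.

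The 5 members that act in G1 were all called lower than input in wild type in 10% serum, as were 3 of them in wild type in 0.1% serum and 4 in ΔLEO1 in 0.1% serum. CCND1, which encodes cyclin D1 (chromosome 11, 69640156 to 69648957), had ChIP values of 4.27 and 5.79 CPM in wild type in 10% serum, 3.42 and 3.79 in wild type in 0.1% serum, 5.51 and 9.11 in ΔLEO1 in 0.1% serum and 14.2 in ΔLEO1 in 10% serum. Every ChIP library was below every input of CCND1, which ran from 23.6 to 37.2 CPM. Its log2 fold change was −3.02 ± 0.32, −3.30 ± 0.34 and −2.33 ± 0.30 in wild type in 10% serum, wild type in 0.1% serum and ΔLEO1 in 0.1% serum. The other D-type cyclins were nearer to input, with CCND3 at −0.41 ± 0.33 and CCND2 at −0.26 ± 0.48 over the 7 libraries. Their partner kinases CDK6 and CDK4 had −1.07 ± 0.40 and −0.78 ± 0.42.

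All 9 members of the G1/S group were called lower than input in wild type in 10% serum, 5 in wild type in 0.1% serum and 7 in ΔLEO1 in 0.1% serum. The activator E2F3 had a mean log2 ratio of −2.30 ± 0.60 and E2F7, an atypical E2F that represses, −1.57 ± 0.41. E2F2 had −0.94 ± 0.81, E2F1 −0.43 ± 0.88 and the atypical E2F8 −0.34 ± 0.30. Of the E-type cyclins CCNE2 had −2.09 ± 0.52 and CCNE1 −0.54 ± 0.55, while their kinase CDK2 had −0.59 ± 0.60 and the phosphatase CDC25A, which removes inhibitory phosphates from CDKs, −0.80 ± 0.40. E2F1 was measured over 1 window and E2F3 over 2.

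Of the 4 genes for nucleotide synthesis, RRM2 was called lower than input in all 3 groups with 2 ChIP libraries, and TYMS only in wild type in 10% serum by the same threshold, with no test of the difference between groups. RRM2 and RRM1 encode the small and large subunits of ribonucleotide reductase, yet they lay far apart, at −1.40 ± 0.39 and 0.21 ± 0.18. RRM1 had 72.5 to 95.8 CPM in ChIP and 60.6 to 82.4 CPM in input, and was called in none of the 4 groups. TK1, thymidine kinase, had 34.6 and 38.0 ChIP CPM in wild type in 10% serum, 50.3 and 29.9 in wild type in 0.1% serum, 40.1 and 16.4 in ΔLEO1 in 0.1% serum and 34.3 in ΔLEO1 in 10% serum, against 15.1 to 41.4 in input. Its log2 fold change was −0.32 ± 0.32, 0.33 ± 0.32 and −0.38 ± 0.33 in the 3 groups, and the ranges of ChIP and input overlapped. Without ΔLEO1 0.1% serum ChIP replicate A, TK1 stood at −1.21 in that group and passed the threshold, so its value there depends on 1 library. TYMS, thymidylate synthase, had a mean log2 ratio of −0.46 ± 0.63, with 8.66 to 22.7 CPM in ChIP and 14.1 to 29.9 CPM in input, which overlapped.

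In the G2 group, 7 of 8 members were called lower than input in wild type in 10% serum, 5 in wild type in 0.1% serum and 5 in ΔLEO1 in 0.1% serum. CCNA2, CDK1 and CDC25C, which encode cyclin A2, the mitotic kinase and its activating phosphatase, had mean log2 ratios of −1.64 ± 0.77, −1.25 ± 0.51 and −0.91 ± 0.32. FOXM1, the transcription factor of late cell cycle genes, was called lower in all 4 groups, with log2 fold changes of −1.30 ± 0.23 in wild type in 10% serum, −0.86 ± 0.23 in wild type in 0.1% serum and −0.92 ± 0.22 in ΔLEO1 in 0.1% serum, and its windows also cover RHNO1 and TULP3. FOXM1 had 22.8 to 36.4 ChIP CPM in the 7 libraries, below every input at 42.4 to 52.5 CPM. Cyclins B2 and B1 stood at −0.76 ± 0.57 and −0.35 ± 0.26, CDKN3, a phosphatase that acts on CDKs, at −0.29 ± 0.31, and MYBL2, which encodes B-MYB, at −0.06 ± 0.50. CCNB1 had a log2 fold change of −0.70 ± 0.26 in wild type in 10% serum (adjusted p = 0.0247) and −0.34 ± 0.25 in wild type in 0.1% serum (adjusted p = 0.275, edgeR), and CDKN3 had −0.68 ± 0.22 (adjusted p = 0.0111) and −0.25 ± 0.21 (adjusted p = 0.351). Compared directly between the serum levels in wild type, ChIP counts of CCNB1 and CDKN3 were not called (adjusted p = 0.608 and 0.563, edgeR).

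Among 12 genes of mitosis and chromosome structure, 10 were called lower than input in wild type in 10% serum, 7 in wild type in 0.1% serum and 9 in ΔLEO1 in 0.1% serum. AURKA, the centrosomal Aurora kinase (chromosome 20, 56391131 to 56393337, where 9 windows overlap almost wholly), had 15.8 and 11.9 ChIP CPM in wild type in 10% serum, 2.39 and 6.74 in wild type in 0.1% serum, 13.5 and 10.5 in ΔLEO1 in 0.1% serum, and 0 in ΔLEO1 in 10% serum. All 8 inputs of AURKA were higher, from 39.2 to 64.9 CPM, and its windows also cover CSTF1. A single fragment can be counted in up to 9 AURKA windows. The 0 counts in ΔLEO1 in 10% serum therefore give no firm bound on a fold change. AURKA's mean log2 ratio was −2.52 ± 0.99 over the other 6 libraries (SD, n = 6), which put it next to PCNA and MCM7. With AURKA set to 3 counts in the ΔLEO1 library of 10% serum, the members' median in that group remained −1.05. CDC20, the activator of the anaphase-promoting complex, PLK1, the Polo-like kinase, CENPA, the centromeric histone, and TOP2A, the topoisomerase that untangles chromosomes, had mean ratios of −1.12 ± 0.34, −1.01 ± 0.24, −0.99 ± 0.52 and −0.95 ± 0.30. CENPA had 10.7 to 24.8 CPM in ChIP, below every input at 25.6 to 46.4 CPM. The checkpoint kinases BUB1 and BUB1B stood at −0.53 ± 0.19 and −0.14 ± 0.40, MKI67 at −0.53 ± 0.41, AURKB, the Aurora kinase of the chromosomal passenger complex, at −0.41 ± 0.34, and its partner BIRC5, survivin, at 0.17 ± 0.43. BIRC5 had 49.6 and 74.5 ChIP CPM in wild type in 10% serum, 52.3 and 73.7 in wild type in 0.1% serum, 60.9 and 46.9 in ΔLEO1 in 0.1% serum and 43.3 in ΔLEO1 in 10% serum, which overlapped its inputs of 35.5 to 57.3 CPM. The kinetochore genes CENPE and CENPF had −0.35 ± 0.29 and −0.20 ± 0.31.

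The lower ChIP signal was not even among the windows of a gene. Member windows were divided by their distance from the RefSeq gene start into 216 start windows within 1000 bp of it and 132 internal windows over 2000 bp away, a division chosen after the values were seen and given without a test. Every window surrounds an annotated TSS, so internal windows lie at other annotated starts of a gene and do not measure the gene body as a whole. With the 7 libraries pooled, the median log2 ChIP over input was −1.46 for start windows over 50 members and −0.29 for internal windows over the 42 members that have them, where all genes had 0.24 and 0.15. Start windows lay below internal windows in 34 of 42 members (81.0%), with a median difference of −1.32. Over all genes with at least 10 input reads, the start windows were lower in 69.9% of 13495 genes, with a median difference of −0.62. Input was nearly level, with a median of 5.41 CPM per window at member starts and 5.01 at internal windows.

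The lowest start was that of CDK6, at −3.46 (−3.88 to −3.24 when each library was left out in turn), which rests on 6 ChIP reads in 7 libraries, with its internal windows at −0.54. Start windows of MCM4, whose windows also cover PRKDC, stood at −3.09 (−3.53 to −2.88 with 1 library left out) and its internal windows at −0.56. That start value rests on 137 ChIP counts over 12 overlapping windows. By group it ran from −1.87 in wild type in 10% serum to −5.00 in ΔLEO1 in 0.1% serum, without a test. CDC45, which shares its start with UFD1, had −2.77 and −0.42. BUB1 had −2.61 at the start and 0.30 at internal windows, CENPF −1.90 and 0.65, E2F8 −1.73 and 1.10, CCNB2 −1.67 and 0.92, and TYMS −1.07 and 1.09, so that internal windows of these 5 genes were above input while their start windows were below it. MCM6 and RRM1, which were near input as whole genes, also had start windows at −0.27 and −0.43 and internal windows at 0.38 and 0.53. The order was the opposite in 8 members. The start used here is the outermost RefSeq coordinate of a gene, where UHRF1 and CCND3 have 1 window each. Whether that is the start used most in these cells was not tested. UHRF1 had 0.46 at the listed start and −2.49 at its 6 internal windows, CCND3 0.44 and −1.91 at 7 internal windows, MCM5 −0.01 and −1.56, CDC6 −0.78 and −1.91, and PCNA −2.43 and −3.55. BUB1B, CCND2 and CCNB1 differed by 0.45, 0.48 and 0.18 in the same direction. TK1, MYBL2 and BIRC5 were near input at the start, at 0.13, −0.01 and 0.17.

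**Figure D2:**
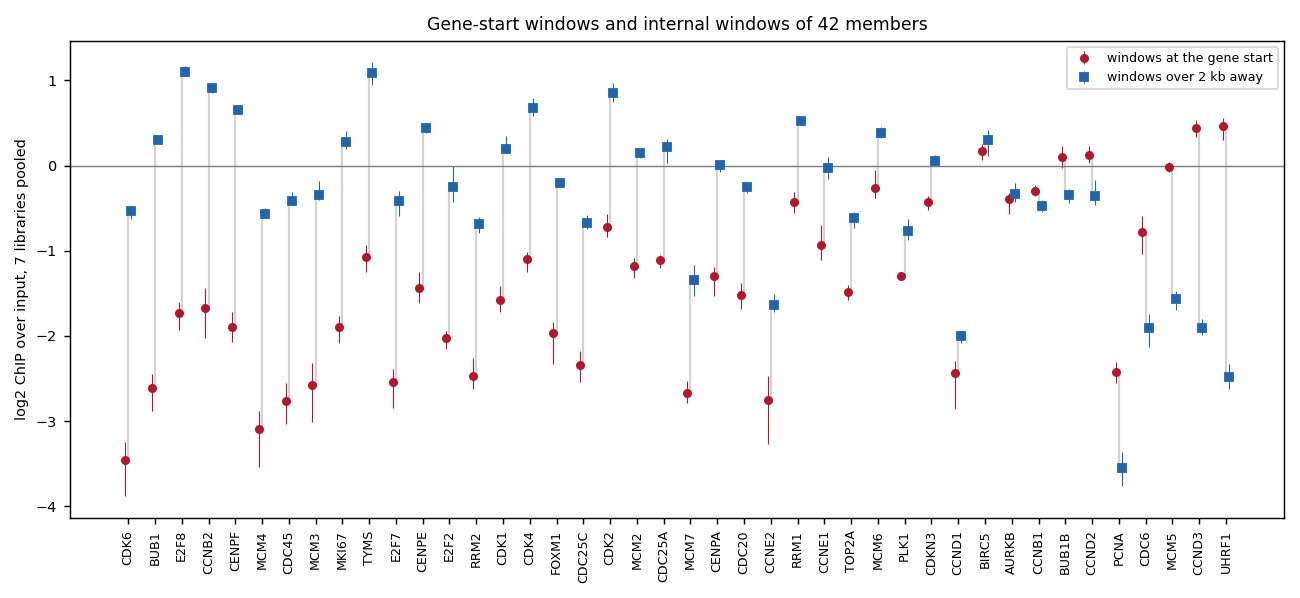
Log2 ChIP over input with 7 libraries pooled, for windows within 1000 bp of the RefSeq gene start (circles) and windows over 2000 bp away (squares), for the 42 members that have both, ordered by the difference. Bars run from the lowest to the highest value when 1 library was left out. Circles lie below squares in 34 members, most of all in CDK6, BUB1 and E2F8, and above them in 8, most of all in UHRF1, CCND3 and MCM5.

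Summed over all members, start windows had 535 to 636 CPM in the 7 ChIP libraries and 1080 to 1279 CPM in their inputs. Their log2 ratio was −1.17 and −1.14 in wild type in 10% serum, −1.01 and −1.03 in wild type in 0.1% serum, −1.07 and −1.03 in ΔLEO1 in 0.1% serum and −0.94 in ΔLEO1 in 10% serum. Internal windows gave −0.45 and −0.41, −0.35 and −0.17, −0.19 and −0.22, and −0.39 in the same order. In each of the 7 libraries the start windows were the lower of the 2 classes. As a median over members, with each gene counted alike, start windows stood at −1.75 in wild type in 10% serum, −1.64 in wild type in 0.1% serum, −1.26 in ΔLEO1 in 10% serum and −1.19 in ΔLEO1 in 0.1% serum. These medians were higher in ΔLEO1 at both serum levels while the ratios of the sums in 0.1% serum were not, and the difference was not tested.

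The GC content of the promoter moved with the signal at the start over all genes. The median log2 ChIP over input of start windows was 0.57 for 1362 genes under 40% GC, 0.52 for 2461 genes from 40% to 50%, −0.30 for 3725 from 50% to 60%, −0.92 for 5094 from 60% to 70% and −1.22 for 4281 at 70% or more. Members stood at −1.58 (10 genes), −1.20 (16 genes) and −1.13 (12 genes) in the upper 3 bands, so they were below the median of all genes at 50% to 70% and slightly above it at 70% or more. In the band from 40% to 50%, which holds CDK1 and CCNB2, the pair had a median of −1.62. Starts with an E2F-type match had a median of −1.63 (12 members) and those without −1.37 (28 members), starts with a CHR match −1.39 (12) and without −1.31 (28), and starts with a CCAAT match −1.54 (26) and without −1.08 (14). The part of base composition in the members' ChIP signal was not tested.

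**Figure D3:**
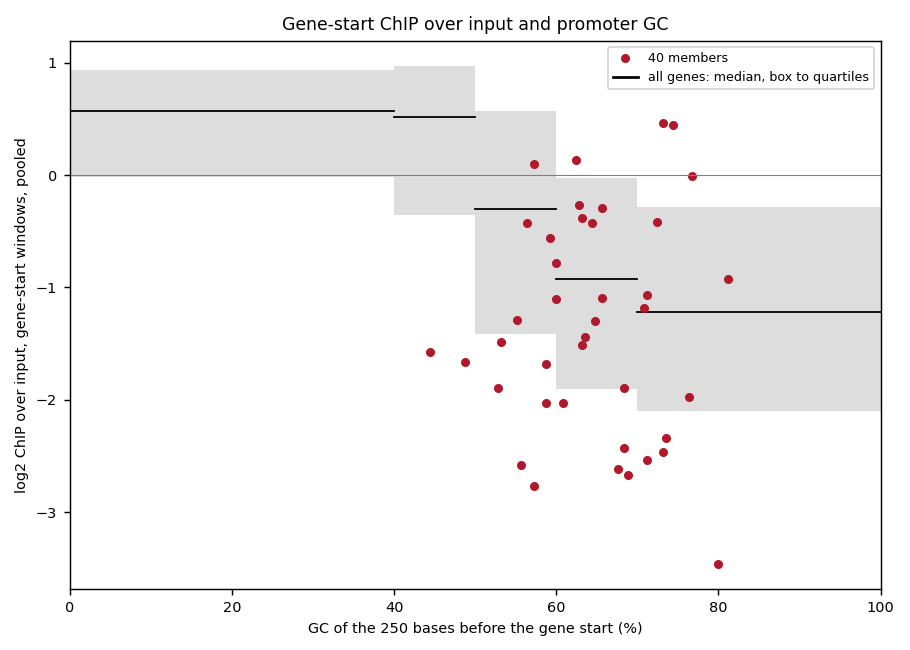
Pooled log2 ChIP over input of gene-start windows against the GC content of the 250 bases before the start. Points are the 40 members with a RefSeq promoter, black lines are medians of all genes in 5 GC bands and grey boxes run from the lower to the upper quartile. All-gene medians fall from 0.57 to −1.22 with rising GC, and most members lie between 50% and 80% GC with values down to −3.46.

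Other lists place the members. The 41 other replication and mitosis genes measured had a median log2 ratio of −0.83, and 36 of them were called lower than input and 1 higher in wild type in 10% serum. Over all genes, 27.3% were called lower and 29.7% higher in that group. The 12 RB and DREAM complex genes had a median of −0.57, with 7 called lower in that group. The 10 fibroblast markers, genes of the labelled cell type, had −1.71 and were all below 0. The 14 markers of keratinocytes, immune cells, endothelium and neurons had 0.48, with 2 below 0. Among the wider families, 81 ribosomal protein genes had −1.14 and 347 olfactory receptor genes, which fibroblasts do not use, 0.95. The median of the members (−0.78) lay between that of the fibroblast markers and that of all genes.

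Serum withdrawal was examined in wild type, to ask whether the members gained the mark in quiescence relative to all genes. Fold changes were centred by TMM factors without scaling to the fly spike-in chromatin, so a gain shared by all genes could not appear. Of the 50 members, 47 passed the filter on low counts in ChIP, and CCNA2, E2F3 and PCNA did not. By edgeR 0 of the 47 differed between 0.1% and 10% serum, beside 0.0% of 52966 genes, with 5 members (10.6%, against 9.06% of all genes) at an unadjusted p under 0.05, a smallest adjusted p of 0.275 and 0 members called by DESeq2. The members' median log2 fold change was 0.04, beside −0.00 over all genes, and it ran from −1.65 to 0.73. Both libraries of 0.1% serum lay above both of 10% serum in 12 members and below them in 6, where 20.6% and 19.8% of all genes did the same.

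The highest fold changes with serum withdrawal were those of E2F2 (0.73 ± 0.45), E2F1 (0.73 ± 0.60), CCNB2 (0.66 ± 0.32) and RRM2 (0.64 ± 0.24). RRM2 went from 20.5 and 23.2 CPM to 32.8 and 35.8, and CCNB2 from 11.1 and 12.7 to 19.5 and 18.5, and in both the groups did not overlap. E2F1 held 3.84 and 1.09 CPM in 10% serum and 3.42 and 4.63 in 0.1% serum, which overlapped, and E2F2 1.71 and 5.43 against 6.50 and 5.90. Lowest were AURKA (−1.65 ± 0.37, adjusted p = 0.275, edgeR), AURKB (−0.71 ± 0.25), GMNN (−0.69 ± 0.28) and CDC6 (−0.65 ± 0.34). AURKB had 58.5 and 53.9 CPM in 10% serum and 34.2 and 35.0 in 0.1% serum, GMNN 23.1 and 32.6 against 19.5 and 15.2, and CDC6 21.4 and 21.7 against 10.6 and 17.3, with no overlap in any of the 3. Genes named as highest or lowest were picked for their fold changes, so groups that stand apart add no support. AURKA was called, at −1.67, in a fit that also held the library of 54 reads. Of the 7 members that are among the genes the study names as repressed in quiescence, 4 had values near 0. CENPA had −0.06 ± 0.36, TYMS 0.02 ± 0.35, TK1 0.14 ± 0.34 and FOXM1 0.21 ± 0.28. CCNB1 had 0.45 ± 0.24, CDKN3 0.49 ± 0.24 and CDC20 −0.58 ± 0.26. CDC20 held 12.4 and 15.6 CPM in 10% serum and 9.92 and 8.85 in 0.1% serum, and CDKN3 held 44.4 and 30.8 against 56.8 and 48.9, so that each pair of groups stood apart in opposite directions. Several of these values rested on 1 library. AURKA was −1.05 and −2.51 without wild type 0.1% serum replicates A and B, and CDC6 −0.34 and −1.03. Without wild type 10% serum replicates A and B, E2F1 was 1.81 and 0.037 and E2F2 0.18 and 1.82, and GMNN was −0.41 without replicate B.

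Loss of LEO1 was examined in 0.1% serum, again relative to all genes, so a shift shared by all genes could not appear. The comparison shares the wild type libraries in 0.1% serum with the serum comparison above, so the values of a gene in the 2 comparisons are not independent. By edgeR 0 of 47 members differed, beside 0.0113% of 52966 genes (0 higher and 6 lower), with 8 members (17.0%, against 10.0% of all genes) at an unadjusted p under 0.05, a smallest adjusted p of 0.206 and 0 called by DESeq2. The members' median log2 fold change was −0.01, equal to that of all genes to the second decimal, with a range from −0.74 to 1.45. Both ΔLEO1 libraries lay above both wild type libraries in 12 members and below them in 10, against 21.0% and 20.4% of all genes.

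The highest fold changes in ΔLEO1 were those of AURKA (1.45 ± 0.38), AURKB (0.98 ± 0.25), CDK2 (0.96 ± 0.30) and CCND1 (0.94 ± 0.39), with edgeR adjusted p-values of 0.214, 0.206, 0.309 and 0.441. AURKA's 13.5 and 10.5 CPM in ΔLEO1 were set against 2.39 and 6.74 in wild type, AURKB's 53.0 and 86.6 against 34.2 and 35.0, CDK2's 46.8 and 49.2 against 32.8 and 15.2, and CCND1's 5.51 and 9.11 against 3.42 and 3.79. None of these 4 pairs of groups overlapped, but the genes were picked for their fold changes, and 21.0% of all genes stood apart in this direction. Lowest were CDK4 (−0.74 ± 0.27), BUB1B (−0.56 ± 0.21), TK1 (−0.50 ± 0.35) and CCNB1 (−0.45 ± 0.24). CDK4 had 27.9 and 36.9 CPM in ΔLEO1 and 45.5 and 61.1 in wild type, BUB1B 36.4 and 38.3 against 52.0 and 56.9, and CCNB1 27.9 and 24.6 against 36.6 and 34.5. TK1 had 40.1 and 16.4 against 50.3 and 29.9, which overlapped. These sizes were not stable. Without wild type replicates A and B, AURKA was 0.84 and 2.30, CDK2 1.65 and 0.52 and TK1 −0.052 and −0.82, and without ΔLEO1 replicates A and B, TK1 was −1.32 and −0.032. AURKB and CCND1 were both 0.59 without ΔLEO1 replicate B. With non-overlapping windows CDK4 was −0.11, CCNB1 −0.28, CCND1 0.55 and CDK2 0.61, and with the input difference taken off AURKB was 0.44. The remaining genes that the study discusses lay near 0, with CDKN3 at −0.25 ± 0.23, TYMS at −0.21 ± 0.35, CDC20 at −0.12 ± 0.28, FOXM1 at 0.10 ± 0.27 and CENPA at 0.13 ± 0.36. By role the medians ran from −0.30 for the 5 G1 genes to 0.18 for the 11 licensing and fork genes tested.

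**Figure D4:**
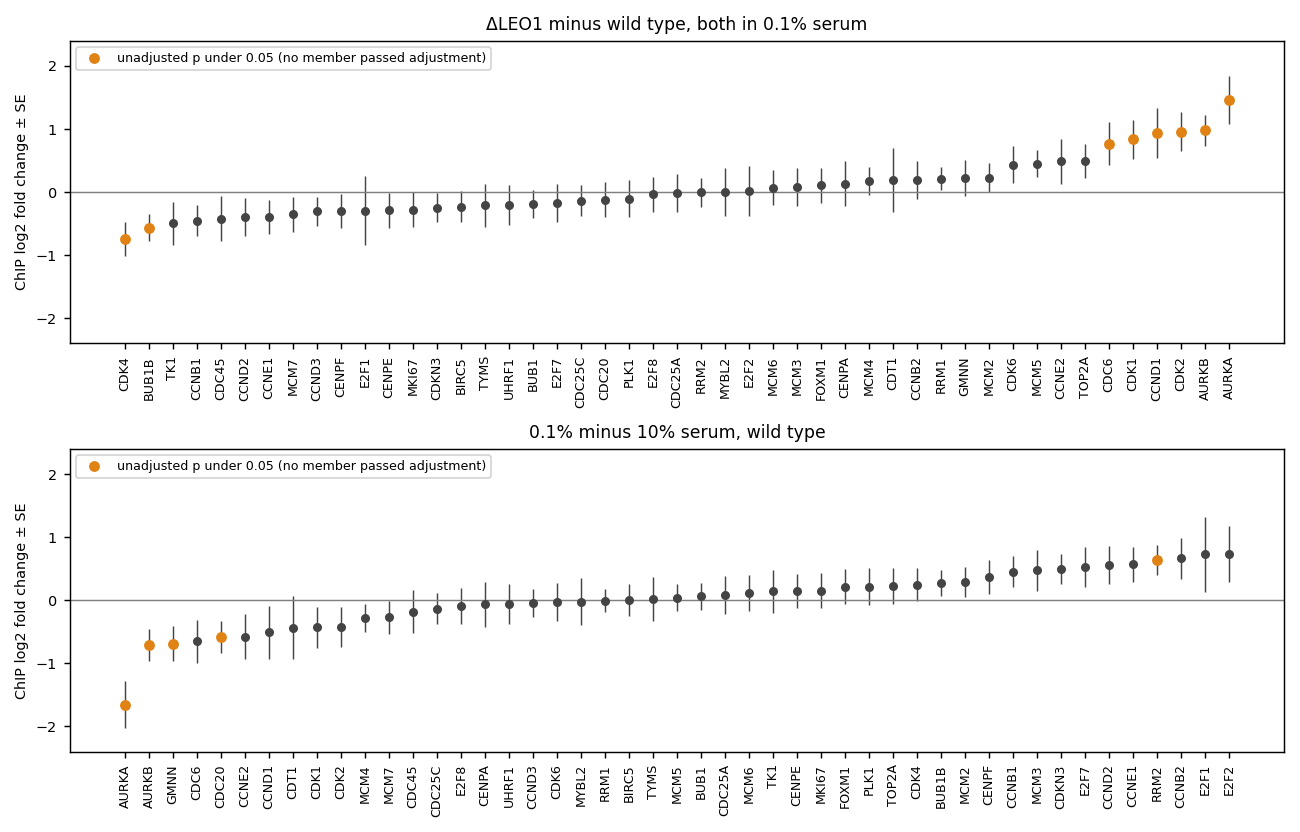
Log2 fold changes of ChIP counts (points) with SE (bars) for the 47 members tested, ordered by value, for ΔLEO1 against wild type in 0.1% serum (upper panel) and for 0.1% against 10% serum in wild type (lower panel). Orange points have an unadjusted p under 0.05 (8 above, 5 below) and 0 passed the adjustment. AURKA and AURKB are highest in the upper panel and lowest in the lower one, and the panels share the wild type libraries of 0.1% serum.

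Comparisons that hold ΔLEO1 in 10% serum rest on 1 ChIP library there. By edgeR 0 of 47 members differed between ΔLEO1 and wild type in 10% serum (all genes, 0.00378%) and 0 between 0.1% and 10% serum in ΔLEO1 (0.00189%), with 2 and 6 members (4.26% and 12.8%, against 8.74% and 10.0% of all genes) at an unadjusted p under 0.05. The difference of the genotype effect between the serum levels was called in 0 members, beside 0.0% of all genes, with 5 members (10.6%, against 5.90% of all genes) at an unadjusted p under 0.05. The smallest adjusted p in each was that of AURKA, at 0.102, 0.132 and 0.091, whose single ΔLEO1 library in 10% serum held 0 reads. AURKA held 37 and 33 counts in wild type in 10% serum and 44 and 23 in ΔLEO1 in 0.1% serum. These counts are summed over 9 windows that overlap almost wholly, so they stand for fewer fragments. No bound on the fold change from 0 is given. CCND1 came next in 10% serum, at 14.2 CPM in ΔLEO1 against 4.27 and 5.79 in wild type (log2 fold change 1.46 ± 0.41, adjusted p = 0.301, edgeR).

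Tested singly, 197 member windows of 44 members passed the filter and 0 were called in either comparison, beside 0.258% of 140885 windows for serum and 0.385% for LEO1. The smallest adjusted p was 0.0582, for the start window of MCM6 (chromosome 2, 135875443 to 135877443) with serum withdrawal in wild type. That window, which covers the MCM6 sequence printed above, held 12 and 16 ChIP reads in wild type in 10% serum, 5 and 2 in wild type in 0.1% serum, 15 and 10 in ΔLEO1 in 0.1% serum and 12 in ΔLEO1 in 10% serum. Wild type in 0.1% serum had the fewest reads, with log2 fold changes of −2.05 ± 0.55 for serum and 1.74 ± 0.56 for LEO1 (adjusted p = 0.146, edgeR). Both fold changes rest on the same wild type libraries of 0.1% serum, and the window was picked for its p-value. Inputs of the window held 23 and 34 reads in that group and 34 and 42 in wild type in 10% serum, not scaled for depth. Over all its windows, MCM6 had a log2 fold change of 0.12 ± 0.28 with serum in wild type.

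Input DNA was compared in the same way as background. By edgeR 0 of 50 members differed with serum in wild type (all genes, 0.00174%), with serum in ΔLEO1 (0.0%), with LEO1 in 0.1% serum (0.0%) or with LEO1 in 10% serum (0.00174%), with 9, 1, 2 and 6 members (18.0%, 2.0%, 4.0% and 12%) at an unadjusted p under 0.05, where 8.30%, 4.40%, 5.18% and 6.74% of all genes were. The members' median log2 fold change was −0.18, −0.06, 0.11 and −0.12 in the same order, beside medians over all genes within 0.01 of 0. In wild type 38 of 50 members had less input in 0.1% than in 10% serum, where 27924 of 57479 genes did. In 22 members both libraries lay below both, where 15.3% of all genes did the same. AURKB (−0.69 ± 0.18), UHRF1 (−0.80 ± 0.23), E2F1 (−0.83 ± 0.29) and CCNE1 (−0.68 ± 0.22) had the smallest p-values, with adjusted p-values of 0.273 to 0.441 by edgeR. With the input difference taken off, the members' median fold change of ChIP with serum in wild type was 0.16 in place of 0.04, with 0 members called. Among the single genes named for that contrast, AURKB was −0.077 in place of −0.71 and E2F1 1.51 in place of 0.73.

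Peak regions gave a second readout. Of 16092 regions, 0 overlapped a member window, where 2.98% of all genes had a window that did, and 18 had a member as their nearest gene. These lay 30.4 to 194 kb from the start of E2F7 (6 regions), CENPF (4), CDK6 (3), MCM5 (2), CENPE, E2F3 and CDKN3 (1 each), and 7 of them were annotated as LINE and 6 as LTR repeats. Their median log2 ChIP over input was 1.93, beside 1.92 over all regions. By edgeR 0 of the 18 differed with LEO1 in 0.1% serum, beside 0.0621% of regions, or with serum in wild type, beside 0.0%, with 1 at an unadjusted p under 0.05 in each. The share of all regions at that unadjusted p is not given here, so nothing is read from that count. The median log2 fold change of the 18 regions was 0.15 for LEO1 and 0.01 for serum.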

How the data were processed

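BJ-5ta ChIP and input libraries were analysed from 2 tables of whole-number read counts deposited by the authors, without scaling, one for TSS windows and one for peaks. The submitters' processing notes name bcl2fastq 2.20.0.422, STAR 2.7.10a and HOMER, with builds hg38 and dm6, and the handling of duplicate reads is not given in the sources used here. Fly spike-in scaling was not used, and TMM factors centre fold changes, so a shift of the mark across all genes could not be seen.

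Counts were summed per gene over distinct windows and tested with edgeR 4.0.16 (R 4.3.3) by the two-sided quasi-likelihood test, with filterByExpr, totals over distinct windows with TMM factors, 1 coefficient per group and Benjamini-Hochberg adjustment over all genes. ChIP contrasts used 7 libraries, input contrasts 8, and ChIP against input 15. SEs come from the F statistic. CPM took the distinct-window reads as the total, without TMM factors, and 0.5 reads were added before log2 ratios. DESeq2 1.42.0 and the settings named at the end were alternatives, and the scripts were tested on simulated data.

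Members and lists (other replication and mitosis genes, RB and DREAM complex genes, fibroblast markers, markers of other cell types, ribosomal protein genes and olfactory receptors) were chosen with earlier results of these data known. The named genes were, by rule, 7 members that the study names as repressed in quiescence, the 4 highest and 4 lowest members in both main contrasts and in ChIP over input, and called members, of which most are given by their mean ratio within their role. E2F2 has 2 windows on an alternate contig, which hold 0 reads. Coordinates are those of the table, and RefSeq promoters are GRCh38.p14.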

Additional observations from a re-analysis of the deposited data

How the results depend on the processing

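The counts of members below input stayed within 1.5 times of those reported in all 28 settings that kept every library, and with the replicate letter as a block (replicate block) they were 43, 32, 36 and 26 in wild type in 10% serum, wild type in 0.1% serum, ΔLEO1 in 0.1% serum and ΔLEO1 in 10% serum. Deviations of A from B correlated at 0.0016 to 0.0151 between ChIP groups, at 0.012 to 0.11 between input groups and at −0.015 to −0.0050 between a ChIP group and its own input, so the letters gave no ground for pairing. No member was called higher than input in any setting. Of 52 settings for the other contrasts 48 kept the count of 0 members called. The exceptions all came from the fit of all 8 ChIP libraries, which called 1 member in each serum contrast (AURKA in wild type), in LEO1 loss in 10% serum and in the interaction.

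Leaving out each library in turn gave 36 to 40, 28 to 32, 29 to 34 and 20 to 28 members below input in the same 4 groups, 0 in both main contrasts, and 0 to 2 for input with LEO1 in 10% serum, the 2 without ΔLEO1 10% serum input replicate B. Counts over all genes ranged from 15757 to 19894 in ΔLEO1 in 0.1% serum and from 11825 to 18128 in ΔLEO1 in 10% serum for ChIP against input. They were 0 without any one of the 4 libraries for LEO1 loss in 0.1% serum, 0 to 1 for serum in wild type, 0 to 2 for input with serum in wild type, 0 to 139 for input with serum in ΔLEO1 and 0 to 728 for input with LEO1 in 10% serum, the highest of the last 2 without ΔLEO1 10% serum input replicate B.

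Counts over all genes for LEO1 loss in 0.1% serum were 6, and became 42 by DESeq2, 96 with all 8 ChIP libraries, 16 without the filter, 536 with non-overlapping windows, 57 with totals of the peak table, 3 with input taken off and 0 with all rows, only the 4 libraries compared, the replicate block or no TMM factors. Serum in wild type went from 0 to 3 (DESeq2), 75 (8 libraries) and 273 (non-overlapping windows). LEO1 loss in 10% serum went from 2 to 73 (8 libraries) and 5 (peak totals), serum in ΔLEO1 from 1 to 87 and 0, and the interaction from 0 to 39 (8 libraries). For input, LEO1 in 0.1% serum went from 0 to 29 (non-overlapping), LEO1 in 10% serum from 1 to 3 (DESeq2) and 0 (non-overlapping), and serum in wild type from 1 to 16 (DESeq2), 2 (all rows) and 0 (non-overlapping). ChIP against input called 21702, 15257, 13902 and 10147 genes by DESeq2. Peak regions called for LEO1 loss went from 10 to 0 with 8 libraries, and regions assigned by overlap with member windows gave no value because there were 0.

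Members' medians moved by more than the spread between replicates in these cases. Without TMM factors ChIP against input was −0.92, −0.69, −0.64 and −0.81, where all genes moved to 0.40, 0.35, 0.43 and 0.31. Non-overlapping windows gave −1.01 in wild type in 10% serum, −0.79 in ΔLEO1 in 0.1% serum and −0.80 in ΔLEO1 in 10% serum, all 16 libraries −1.30 and −1.27 in 10% serum in wild type and ΔLEO1, and DESeq2 −1.31 in wild type in 10% serum. With totals of the peak table the medians were 0.30 for LEO1 loss in 0.1% serum, 0.19 for serum in wild type, 0.37 for LEO1 loss in 10% serum and 0.18 for serum in ΔLEO1, with all 8 libraries 0.032, 0.068 and −0.076 for LEO1 loss in 10% serum, serum in ΔLEO1 and the interaction, and with input taken off 0.16 for serum in wild type. The ChIP share over the input share of member windows was 0.742 with non-overlapping windows, a setting chosen after the data were seen.

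Signs of genes near input were not stable. In wild type in 10% serum RRM1 turned to −0.11 (DESeq2), −0.10 (16 libraries), −0.0035 (all rows) and −0.036 (no filter) and ran from −0.10 to 0.11 with 1 library out, BIRC5 turned to −0.053 (DESeq2) and −0.043 (16 libraries) and ran from −0.30 to 0.31, and MCM6 turned to 0.12 (no TMM factors) and ran from −0.44 to 0.0045. In wild type in 0.1% serum RRM1 turned to 0.0086 (non-overlapping windows) and 0.057 (no TMM factors), TK1 ran from −0.076 to 0.67 and BIRC5 from −0.025 to 0.47. In ΔLEO1 in 0.1% serum RRM1 turned to 0.23 and 0.18 under the same 2 settings, BIRC5 to 0.021 (no TMM factors), TK1 ran from −1.21 to 0.10 and MCM6 from −0.038 to 0.27. The causes were not tested.

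Depth limits the single-gene comparisons, since E2F1 held 1.09 to 4.63 ChIP CPM and PCNA 1.22 to 2.05, and each group had at most 2 ChIP libraries.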
